A study of Mus musculus with 10 samples.

Results

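Glucose that enters a heart muscle cell is committed to use at 2 steps, and 9 genes that run or set those steps are described here: the hexokinases Hk1 and Hk2, the phosphofructokinases Pfkm, Pfkl and Pfkp, the regulators Pfkfb1, Pfkfb2 and Pfkfb3, and the fructose bisphosphatase Fbp2. They were chosen by name, as the hexokinases, phosphofructokinases and fructose bisphosphate enzymes of the heart, out of 45882 gene IDs in the data. All 9 were found, and all 9 passed the filter on low values. Pfkfb1 passed it through the control libraries, since its level in the other groups was near or under the minimum.

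The RNA came from adult C57BL/6 mice, whose left ventricle was dissociated to isolate cardiac myocytes. There were 3 control libraries, 4 libraries from mice with a knockout of CTCF, a protein that binds DNA and organises chromatin loops, and 3 libraries labelled TAC, for transverse aortic constriction, in which a band on the aorta makes the heart pump against raised pressure. Each library came from its own mouse, and p-values measure the spread between these mice. How and when CTCF was deleted, the genotype of the TAC mice and the time after surgery are not given in the sources used here. The labels name polyA RNA while the protocol describes depletion of ribosomal RNA. Levels are FPKM, fragments normalized to transcript length and library size, rescaled between libraries. Since they are per length, levels of different genes can be compared.

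Hexokinases phosphorylate glucose and trap it in the cell. Hk1 is the broadly expressed form, common in the fetal heart, and Hk2 is the insulin-responsive form of adult striated muscle. Phosphofructokinase then makes fructose 1,6-bisphosphate and is the main control point of glycolysis. It works as a tetramer of muscle (Pfkm), liver (Pfkl) and platelet (Pfkp) subunits. The Pfkfb enzymes make and break fructose 2,6-bisphosphate, the strongest activator of phosphofructokinase, and Fbp2 is the muscle enzyme that runs the phosphofructokinase step in reverse.

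Against control, Hk1, Pfkp and Fbp2 passed the test in both the knockout and the TAC myocytes, in the same direction in each. Pfkfb1 did so as well, but it entered the test through the controls alone. The share of all genes that passed in both was not counted. Hk1 and Pfkp rose in both, to 1.60 and 3.23 times control in the knockouts and to 1.72 and 3.69 times control after TAC. Fbp2 and Pfkfb1 fell in both, to 26.3% and 11.3% of control in the knockouts and to 28.8% and 20.2% after TAC. Pfkm, by far the most abundant of the 9, did not pass the test in either. Pfkfb2 was lower in both and passed in the knockouts only. In the comparison of knockout with control, 2 members rose, 3 fell and 4 did not pass (limma, Benjamini-Hochberg adjusted p under 0.05), where 20.8% of the 11358 genes tested were called, 10.6% higher and 10.2% lower. After TAC, 3 rose, 2 fell and 4 did not pass, where 15.5% of all genes were called, 8.08% higher and 7.37% lower. The median log2 difference of the 9 was -0.21 in the knockouts and 0.17 after TAC, with medians of -0.01 and -0.00 over all genes tested. Pfkfb1 is counted among those that fell in both, and since it entered the test through the controls alone, the counts and medians are a description. Both comparisons use the same 3 control libraries, so a control library that differs would move both. These are bulk samples, in which fewer cells of a type and less RNA per cell cannot be told apart.

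**Figure D1:**
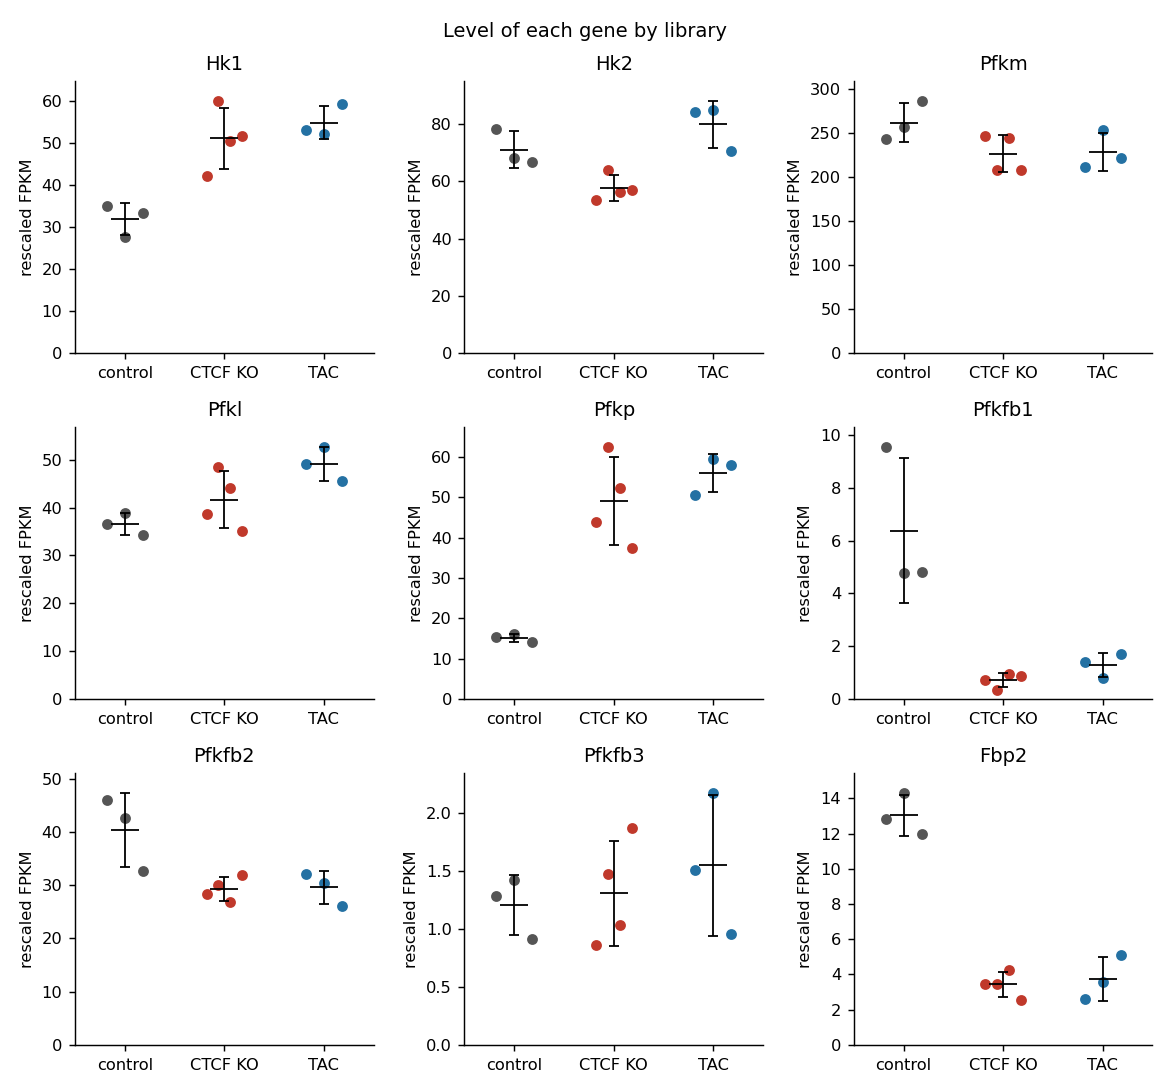
Rescaled FPKM (vertical axes, linear, from 0) of each of the 9 genes in 3 control, 4 CTCF knockout (CTCF KO) and 3 TAC libraries; points are libraries, horizontal marks are means and bars are 1 SD. For Hk1, Pfkp, Pfkfb1, Pfkfb2 and Fbp2 no control library lies within the range of the other 7. Over all genes tested, knockout and control did not overlap for 30.8%, and TAC and control for 31.6%. The share of genes whose controls lie apart from the other 7 libraries together was not counted.

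**Figure D2:**
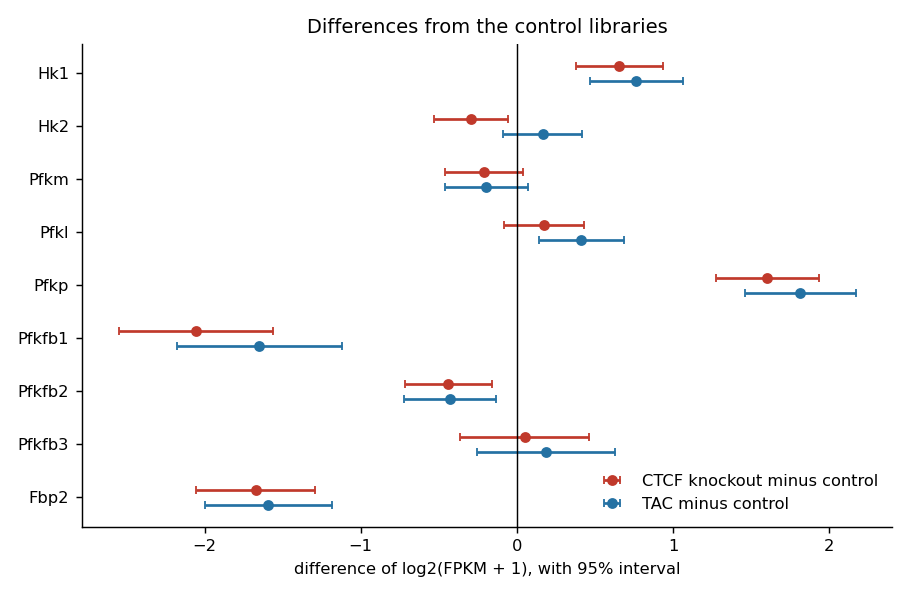
Difference from control in log2(FPKM + 1) (horizontal axis) of each gene in the CTCF knockout and in TAC, with 95% intervals from limma. Pfkp lies highest at 1.61 and 1.82, and Pfkfb1 lowest at -2.06 and -1.65.

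The labels were checked on Ctcf itself. Its level was 8.81, 8.34 and 6.80 FPKM in the controls, 2.90, 4.01, 2.60 and 4.42 FPKM in the knockouts and 7.32, 5.70 and 5.22 FPKM after TAC. All 4 knockouts lay below every other library, and Ctcf fell by 1.02 on the log2 scale (SE 0.16, adjusted p = 0.00136, limma). Markers of cardiac myocytes summed to 28345 to 30390 FPKM in controls, 22080 to 28022 in knockouts and 24390 to 30343 after TAC. Every knockout sum lay below every control, while TAC overlapped with control. Of the 8 markers, 4 fell in the knockouts and 2 after TAC. Of 10 fibroblast markers 9 were tested, and 4 rose in each condition; the list summed to 143 to 282 FPKM in controls, 242 to 373 in knockouts and 269 to 331 after TAC. Endothelial markers summed to 63.4 to 86.6, 76.9 to 144 and 93.4 to 132 FPKM in the same order, with 3 of 10 higher in the knockouts. Macrophage and leukocyte markers summed to 72.1 to 97.3, 80.4 to 132 and 112 to 129 FPKM, with 2 higher and 1 lower in the knockouts and 2 higher after TAC. Smooth muscle and pericyte markers summed to 151 to 160, 73.5 to 95.2 and 95.2 to 102 FPKM, with 1 of 8 higher and 2 lower in each condition. Erythroid markers summed to 288 to 1198, 130 to 632 and 951 to 1676 FPKM, with none of 5 called. None of these markers was at 0 in every library. Hk1, Pfkl and Pfkp are also expressed by non-muscle cells, and the part of those cells in the results below was not tested.

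Promoter windows are printed for 3 of the genes, as the 200 bases before a RefSeq start (GRCm38.p6, RefSeq). Pfkm is listed in these data with transcripts from 2 starts, Pfkp had the largest rise and Fbp2 a large fall. RefSeq has further Pfkm starts, at bases 98108556 and 98112060, and no transcript listed in these data begins there. Capitals mark matches to the motifs searched on both strands: the GC box GGGCGG, the hypoxia response core ACGTG and the element AAGGTCA of estrogen-related receptors. The core of the CTCF motif was searched as well.
Pfkm upstream start, chr15:98092389-98092588, plus strand: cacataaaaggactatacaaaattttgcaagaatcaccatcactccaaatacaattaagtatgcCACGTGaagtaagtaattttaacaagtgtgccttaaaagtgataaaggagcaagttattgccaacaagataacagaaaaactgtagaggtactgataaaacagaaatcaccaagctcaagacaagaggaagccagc
Pfkm downstream start, chr15:98108271-98108470, plus strand: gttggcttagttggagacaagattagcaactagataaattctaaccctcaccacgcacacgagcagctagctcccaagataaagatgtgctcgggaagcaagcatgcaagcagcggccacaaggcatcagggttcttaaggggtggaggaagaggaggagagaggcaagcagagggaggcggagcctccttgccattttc
Pfkp, chr13:6648772-6648971, minus strand: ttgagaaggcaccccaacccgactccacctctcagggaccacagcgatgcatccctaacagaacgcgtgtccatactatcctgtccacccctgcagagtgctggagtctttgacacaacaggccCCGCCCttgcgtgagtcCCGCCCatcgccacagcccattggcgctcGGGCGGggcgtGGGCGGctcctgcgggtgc
Fbp2, chr13:62858401-62858600, minus strand: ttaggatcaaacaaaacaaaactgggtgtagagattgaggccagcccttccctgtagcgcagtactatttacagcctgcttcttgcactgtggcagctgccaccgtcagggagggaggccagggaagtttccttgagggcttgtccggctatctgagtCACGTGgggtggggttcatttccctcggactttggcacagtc

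The Pfkp window holds 4 GC boxes and no other match. The Fbp2 window and that of the upstream Pfkm start each hold CACGTG, which reads as ACGTG on both strands. The downstream Pfkm window holds no match. Over 32817 windows of the same length, 31.0% held a GC box, 13.95% the hypoxia response core, 3.19% the receptor element and 1.76% the CTCF core. Of the 19 windows of the 9 genes, 6, 7, 1 and 0 held them in that order. A match here is a run of letters, and binding was not measured.

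Hk1 (chr10:62268855-62379908, minus strand, mm10) was measured at 35.1, 27.6 and 33.4 FPKM in controls, at 42.3, 60.1, 50.6 and 51.9 FPKM in knockouts and at 53.1, 52.1 and 59.5 FPKM after TAC. Each of the 7 libraries from knockout and TAC mice lay above all 3 controls. The rise was 0.66 on the log2(FPKM + 1) scale in the knockouts (SE 0.13, 95% interval 0.38 to 0.94, adjusted p = 0.00421, limma) and 0.77 after TAC (SE 0.14, interval 0.47 to 1.06, adjusted p = 0.00370). Among all genes tested, the values of knockout and control did not overlap for 30.8%, and those of TAC and control for 31.6%. The share for which both held together was not counted. Knockout and TAC overlapped, with a difference of -0.11 (interval -0.39 to 0.17, adjusted p = 0.714).

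Hk2 (chr6:82725025-82774454, minus strand) was measured at 78.3, 68.0 and 66.7 FPKM in controls, at 53.4, 64.1, 56.4 and 56.8 FPKM in knockouts and at 84.1, 84.9 and 70.5 FPKM after TAC. The knockouts lay below every other library, while TAC overlapped with control. Against control the differences were -0.29 in the knockouts (interval -0.53 to -0.06, adjusted p = 0.0754, limma) and 0.17 after TAC (interval -0.09 to 0.42, adjusted p = 0.370), and neither passed. Compared directly, Hk2 was lower in knockouts than after TAC by -0.46 (SE 0.11, interval -0.70 to -0.22, adjusted p = 0.0431), the only member of the 9 called between them. Of all genes, 3.28% were called there, 1.58% higher and 1.70% lower in the knockouts, and values did not overlap for 18.1%. That call is close to the threshold: the adjusted p ranged from 0.0287 to 0.149 over 24 alternatives and missed it in 13, among them the fits without control replicates 2 or 3, knockout replicates 1, 3 or 4, or TAC replicates 1 or 2.

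Within the hexokinase pair, Hk1 took a larger part in both conditions than in control. Its share of the summed Hk1 and Hk2 level was 30.9%, 28.9% and 33.3% in controls, 44.2%, 48.4%, 47.3% and 47.7% in knockouts and 38.7%, 38.1% and 45.8% after TAC. No control share reached those of the other groups, and TAC replicate 3 fell inside the range of the knockouts. The 3 groups differed by an exact permutation test over the 4200 assignments of libraries to groups (p = 0.00143, adjusted over 4 shares 0.00571, smallest p possible 0.000476). The mean share was 15.8 points above control in the knockouts (exact two-sided permutation p = 0.0286, the smallest that 4 against 3 allows, adjusted over 12 pairs 0.114) and 9.80 points above it after TAC (exact p = 0.1, the smallest that 3 against 3 allows, adjusted 0.15). With only the most abundant transcript of each gene, the difference between the 3 groups missed the threshold (exact permutation test, adjusted p = 0.0643). The summed level of both was 103 ± 9.26 FPKM in controls (SD, n = 3), 109 ± 11.7 in knockouts (n = 4) and 135 ± 4.15 after TAC (n = 3).

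**Figure D3:**
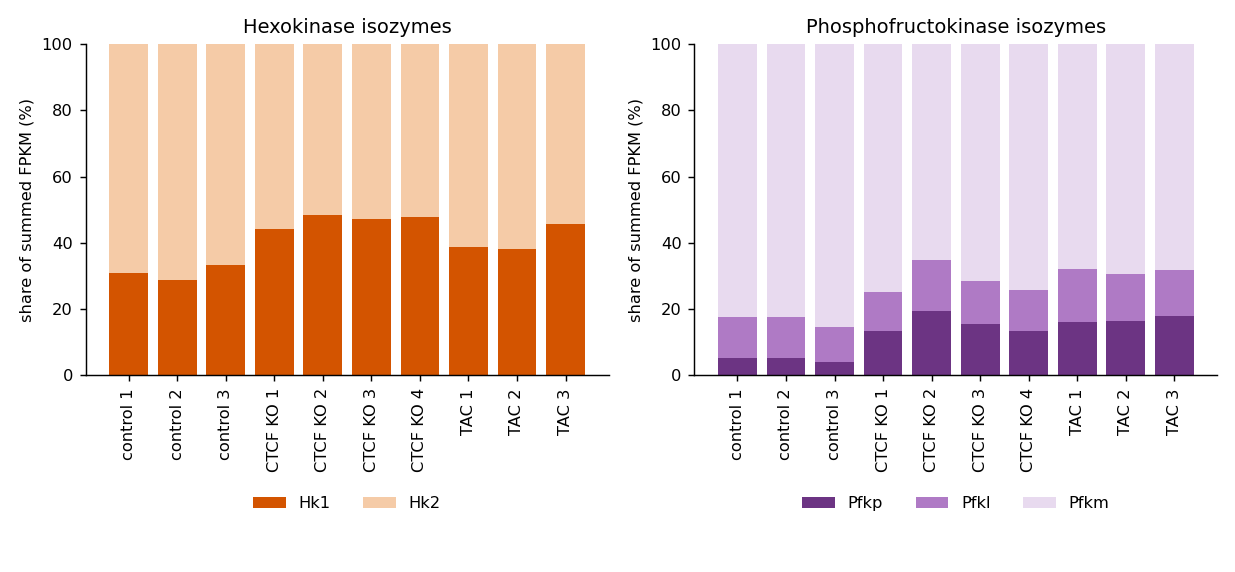
Share of the summed FPKM (vertical axes, percent) of Hk1 and Hk2 and of Pfkm, Pfkl and Pfkp in each library, as stacked bars. Hk1 makes up 28.9% to 33.3% of the hexokinase sum in controls and 38.1% to 48.4% in the other libraries, and Pfkp 4.21% to 5.24% of the phosphofructokinase sum in controls and 13.4% to 19.6% elsewhere.

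Among the transcripts of Hk1, ENSMUST00000130422 held a mean of 45.0%, 39.7% and 49.0% of the gene in control, knockout and TAC, ENSMUST00000099691 29.6%, 33.8% and 30.5%, and ENSMUST00000072357 14.2%, 20.5% and 11.7%. Hk2 was carried almost wholly by ENSMUST00000000642, at 92.9%, 95.2% and 95.2%. Shares of overlapping transcripts are estimates by Cufflinks, and none was tested.

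Pfkm (chr15:98092589-98132447, plus strand), the muscle phosphofructokinase, was the most abundant member in every library. Its levels were 243, 256 and 286 FPKM in controls, at 246, 208, 244 and 208 FPKM in knockouts and at 211, 253 and 221 FPKM after TAC. The groups overlapped. The difference from control was -0.21 in the knockouts (interval -0.46 to 0.04, adjusted p = 0.224, limma) and -0.20 after TAC (interval -0.46 to 0.07, adjusted p = 0.308).

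The 2 annotated starts of the gene were also read separately. Transcripts from the upstream start, base 98092589, lay at 72.8, 63.6 and 58.8 FPKM in controls, 31.9, 29.4, 35.4 and 25.9 FPKM in knockouts and 70.1, 46.5 and 40.2 FPKM after TAC. All 4 knockouts were below every other library. Transcripts from the downstream start, base 98108471, lay at 197 ± 28.6 FPKM in controls, 196 ± 18.05 in knockouts and 176 ± 32.6 after TAC (SD), and the groups overlapped. The upstream start held 20.6% to 29.9% of Pfkm in controls, 12.5% to 14.5% in knockouts and 18.2% to 33.1% after TAC. These levels and shares are estimates by Cufflinks for overlapping transcripts, and no test was run on this split. Senp1 overlaps the upstream start on the other strand at 1.55 to 2.89 FPKM, and 7.43% of the 100-base stretches of Pfkm transcripts are also in Gm26513, which stood at 0.0967 to 0.323 FPKM.

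Pfkl (chr10:77986947-78010083, minus strand), the liver form, was measured at 36.5, 38.8 and 34.3 FPKM in controls, at 38.7, 48.5, 44.2 and 35.0 FPKM in knockouts and at 49.0, 52.6 and 45.6 FPKM after TAC. TAC lay above every control, and the knockouts overlapped with both. It rose after TAC by 0.41 (SE 0.13, interval 0.14 to 0.69, adjusted p = 0.0455, limma), and in the knockouts the difference was 0.17 (interval -0.08 to 0.43, adjusted p = 0.336). The rise after TAC missed the threshold in 13 of 24 alternatives (adjusted p 0.0320 to 0.129), among them each fit without a control or a TAC library and those without knockout replicates 1 or 3. The difference between knockout and TAC was -0.24 (interval -0.50 to 0.02, adjusted p = 0.311). A short transcript with an upstream start, ENSMUST00000145716, held 6.62% to 11.1% of the gene in controls, 14.1% to 18.3% in knockouts and 7.78% to 12.4% after TAC, with the knockouts above all others. This share is an estimate by Cufflinks and was not tested.

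**Figure D4:**
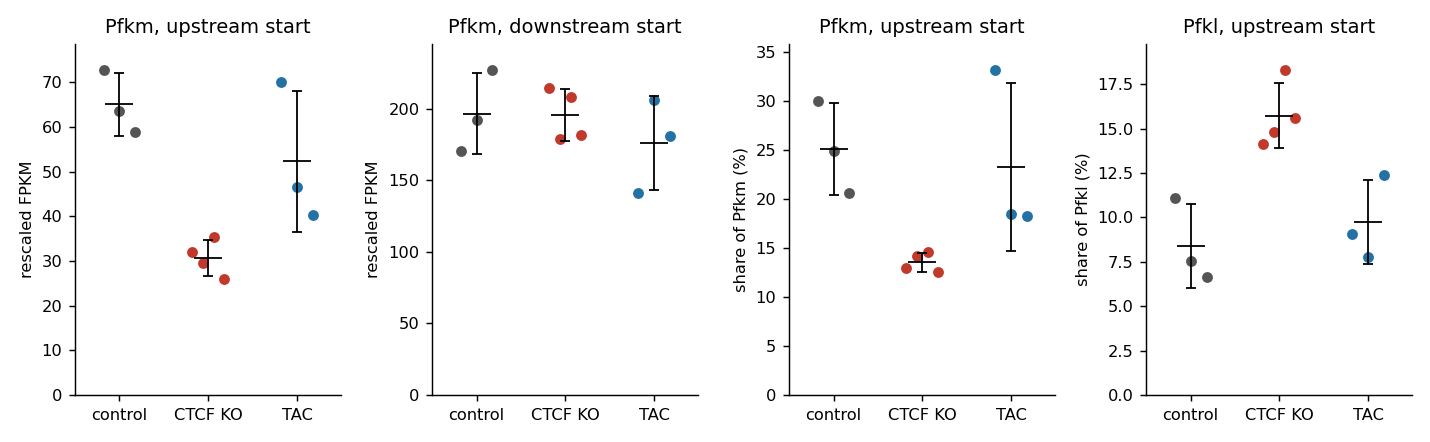
Level of Pfkm from its upstream and its downstream start (rescaled FPKM), and share of the upstream start in Pfkm and in Pfkl (percent), by library; points are libraries, marks are means and bars are 1 SD. In the knockouts the upstream start holds 12.5% to 14.5% of Pfkm and 14.1% to 18.3% of Pfkl, outside the range of control and TAC in both genes. These are estimates for overlapping transcripts and were not tested. How often starts of other genes separate in this way was not counted.

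Pfkp (chr13:6579768-6648777, minus strand), the platelet form, was the least abundant phosphofructokinase in controls and lay above Pfkl in each of the other 7 libraries. Its levels were 15.5, 16.04 and 14.1 FPKM in controls, at 44.0, 62.5, 52.4 and 37.4 FPKM in knockouts and at 50.6, 59.5 and 58.0 FPKM after TAC. The lowest of these 7 values stood above the highest control. The rise was 1.61 in the knockouts (SE 0.15, interval 1.27 to 1.94, adjusted p = 5.944e-05, limma) and 1.82 after TAC (SE 0.16, interval 1.46 to 2.17, adjusted p = 6.708e-05). The difference between the conditions was -0.21 (interval -0.54 to 0.12, adjusted p = 0.514).

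Of the Pfkp transcripts, ENSMUST00000021614 went from 48.0% of the gene in controls to 61.3% in knockouts and 62.5% after TAC, and ENSMUST00000138703 from 37.5% to 26.0% and 26.2% (means, not tested). The latter reaches further downstream, into the end of Pitrm1 on the other strand, which stood at 12.9 to 15.4 FPKM in all libraries.

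The make-up of phosphofructokinase RNA differed between groups, while the ranges of its sum overlapped. The sum of Pfkm, Pfkl and Pfkp was 313 ± 19.7 FPKM in controls (SD, n = 3), 317 ± 26.2 in knockouts (n = 4) and 333 ± 28.0 after TAC (n = 3). Pfkm made up 82.4%, 82.3% and 85.5% of it in controls, 74.8%, 65.2%, 71.6% and 74.1% in knockouts and 68.0%, 69.3% and 68.1% after TAC. Pfkp made up 5.24%, 5.16% and 4.21%, then 13.4%, 19.6%, 15.4% and 13.4%, then 16.3%, 16.3% and 17.9%. For both, no control lay within the range of the other 7 libraries. The exact 3-group permutation test gave p = 0.00524 for Pfkm (adjusted 0.0105) and p = 0.00810 for Pfkp (adjusted 0.0108). No pairwise difference of either share passed after adjustment. By exact two-sided permutation, the adjusted p of both was 0.114 for knockout against control and 0.15 for TAC against control. The 2 shares are parts of the same sum, so they are not separate results. The share of Pfkl was 11.7 ± 1.25% in controls, 13.1 ± 1.47% in knockouts and 14.7 ± 0.896% after TAC and missed the threshold (exact permutation p = 0.0652, adjusted 0.0652).

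Pfkfb1 (chrX:150588229-150643878, plus strand), the isozyme of liver and skeletal muscle, had the largest relative fall. It was measured at 9.54, 4.78 and 4.80 FPKM in controls, at 0.731, 0.335, 0.949 and 0.859 FPKM in knockouts and at 1.39, 0.781 and 1.70 FPKM after TAC. The lowest control stood above all 7 other libraries, and control 1 was the highest of all. It fell by 2.06 on the log2 scale in the knockouts (SE 0.23, interval -2.55 to -1.56, adjusted p = 0.000150, limma) and by 1.65 after TAC (SE 0.24, interval -2.18 to -1.12, adjusted p = 0.00121). A gene that passes the filter only through its highest group had to differ, so these adjusted p-values are only a description. The fit without a filter is given as well: there the adjusted p was 0.00222 in the knockouts and 0.0112 after TAC (limma). The pseudocount of 1 shrinks these differences at such low levels. With a pseudocount of 0.1 they were -2.98 and -2.21, and the control mean was 8.87 times the knockout mean and 4.95 times the TAC mean. The coverage that Cufflinks lists for its transcripts was 20.3 to 53.0 in controls, 1.36 to 5.28 in knockouts and 3.03 to 10.9 after TAC, so its level outside the controls rests on few reads. Apex2, on the other strand, overlaps the most upstream Pfkfb1 start, base 150588229, at 0.718 to 3.87 FPKM. Its part in the listed level of Pfkfb1 was not tested.

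Part of a list of liver transcripts was higher in controls, as Pfkfb1 was. Albumin, Alb, was listed at 3.80, 4.15 and 3.49 FPKM in controls and at no more than 0.0219 FPKM in knockouts and 0.0516 FPKM after TAC. Of 8 liver markers, Apoa1, Fgb and Serpina1a were also higher in every control than in every other library, at 1.02 FPKM or less. Apoa2 overlapped with the knockouts and Ttr with both other groups. Trf and Ahsg, which make up most of the summed level, were not higher in every control. After TAC, Trf lay above every control, at 10.1 to 10.9 against 6.87 to 8.32 FPKM. The list summed to 15.2 to 19.5 FPKM in controls, 7.65 to 16.7 in knockouts and 13.9 to 15.2 after TAC, with 4 of 8 tested, 1 lower in the knockouts and 2 lower after TAC. The part of liver RNA in the fall of Pfkfb1 was not tested. Within the controls, transcripts from the start at base 150589921 held 7.95% of Pfkfb1 in control 1, 47.6% in control 2 and 52.0% in control 3, and those from base 150594478 held 40.3%, 37.4% and 21.1%.

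**Figure D5:**
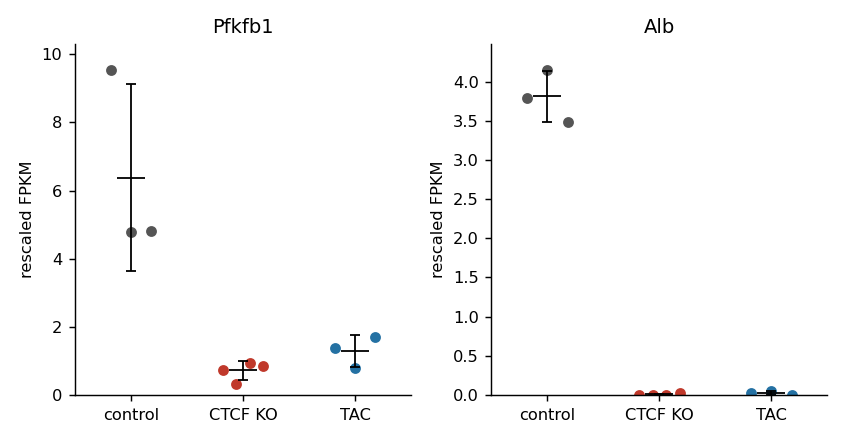
Rescaled FPKM (vertical axes, linear, from 0) of Pfkfb1 and of the liver transcript Alb by library; points are libraries, marks are means and bars are 1 SD. Both are higher in each of the 3 controls than in the other 7 libraries. Not all liver markers were: Trf and Ahsg, which make up most of the summed level of the list, were not higher in every control.

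Pfkfb2 (chr1:130689182-130729253, minus strand), the heart isozyme that insulin and adrenergic signals activate, was the most abundant of the 3 regulators. Its levels were 46.0, 42.5 and 32.6 FPKM in controls, 28.4, 29.99, 26.9 and 31.98 FPKM in knockouts and at 32.1, 30.4 and 26.1 FPKM after TAC. All 7 lay below the lowest control, though control 3 was close to them. It fell by 0.44 in the knockouts (SE 0.13, interval -0.72 to -0.16, adjusted p = 0.0305, limma). After TAC the difference was -0.43 (SE 0.14, interval -0.73 to -0.13, adjusted p = 0.0538) and did not pass. The call in the knockouts was lost in 10 of 24 alternatives (adjusted p 0.00847 to 0.111), among them those without control replicates 1 or 2 or knockout replicates 1, 2 or 3, and TAC passed in 4 of 24, among them that without control replicate 3 (adjusted p = 0.0151). Between the conditions the difference was -0.01 (interval -0.29 to 0.27, adjusted p = 0.979). Of the 100-base stretches of Pfkfb2, 14.5% are also in Gm29427, a gene on the same strand at 0.133 to 0.856 FPKM, so the split of reads between them is uncertain.

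Pfkfb3 (chr2:11471433-11554077, minus strand), the inducible isozyme of proliferating and stressed cells, was the least abundant member in controls. It was measured at 1.28, 1.42 and 0.915 FPKM in controls, at 0.859, 1.47, 1.03 and 1.87 FPKM in knockouts and at 1.51, 2.17 and 0.957 FPKM after TAC. The groups overlapped, and the differences of 0.05 (interval -0.36 to 0.46, adjusted p = 0.879, limma) and 0.19 (interval -0.26 to 0.63, adjusted p = 0.584) did not pass. Its listed coverage was 3.49 to 8.71 over all libraries.

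Fbp2 (chr13:62836884-62858400, minus strand), the muscle fructose bisphosphatase, is annotated with 1 transcript, and no 100-base stretch of it occurs in another gene. Controls stood at 12.8, 14.3 and 12.01 FPKM, knockouts at 3.47, 3.46, 4.24 and 2.56 FPKM and TAC libraries at 2.59, 3.60 and 5.09 FPKM. The highest of the 7 was less than the lowest control, and the 95% bounds that Cufflinks deposited for single libraries did not meet either: the lowest control bound was 10.5 FPKM and the highest bound of the other libraries 6.10 FPKM, before rescaling. It fell by 1.67 in the knockouts (SE 0.17, interval -2.06 to -1.29, adjusted p = 0.000105, limma) and by 1.59 after TAC (SE 0.19, adjusted p = 0.000335). Knockout and TAC differed by -0.08 (interval -0.46 to 0.30, adjusted p = 0.853).

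The order of levels changed with these shifts. In controls it ran Pfkm, Hk2, Pfkfb2, Pfkl, Hk1, Pfkp, Fbp2, Pfkfb1 and Pfkfb3, where Pfkfb2, Pfkl and Hk1 overlapped with their neighbours, as did Pfkp and Fbp2. In knockouts Hk2, Hk1, Pfkp and Pfkl followed Pfkm and overlapped from one to the next, ahead of Pfkfb2, Fbp2, Pfkfb3 and Pfkfb1, the last of which overlapped with Pfkfb3. After TAC the order was Pfkm, Hk2, Pfkp, Hk1, Pfkl, Pfkfb2, Fbp2, Pfkfb3 and Pfkfb1, with Pfkp, Hk1 and Pfkl overlapping, and again Pfkfb3 and Pfkfb1.

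The other genes of glucose uptake and glycolysis were taken as a list of 25, of which 17 passed the filter. In the knockouts 4 rose, 2 fell and 11 did not pass, with a median difference of 0.21. Over all genes tested, 10.6% rose and 10.2% fell there, with a median of -0.01. Eno1, an enolase, rose by 0.52, Pgk1, phosphoglycerate kinase, by 0.46, Gpi1, which makes fructose 6-phosphate, by 0.45 and Tigar, which lowers fructose 2,6-bisphosphate, by 0.39 (adjusted p = 0.0206, 0.0329, 0.0198 and 0.0210). Slc2a4, the glucose transporter that insulin moves to the cell surface, fell by 0.61 (adjusted p = 0.00543) and Ldhb, a lactate dehydrogenase subunit, by 0.44 (adjusted p = 0.0218). After TAC 5 rose, none fell and 12 did not pass, with a median of 0.38. Over all genes tested, 8.08% rose and 7.37% fell after TAC, with a median of -0.00. Among the genes of the list that rose were Gapdh by 0.76, Pgam1 by 0.72, Eno1 by 0.59 and Gpi1 by 0.46 (adjusted p = 0.0213, 0.0168, 0.0197 and 0.0298).

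Genes whose log2 level followed a member most closely over the 10 libraries were listed as a description. The highest Pearson r was 0.991 for Usp28 with Pfkp, followed there by Rmnd5b at 0.985 and Cnksr1 at 0.982. Fbp2 was followed by Tnni3k at 0.989, Hnmt at 0.979 and Mccc2 at 0.973, and Pfkfb1 by Agtpbp1 at 0.980, Zfp971 at 0.977 and Api5 at 0.969. For Hk1 they were Gab2 at 0.972, Ppp1r12a at 0.971 and Pakap at 0.969, and for Hk2 Kif13a at 0.954, the muscle glycogen synthase Gys1 at 0.945 and the mitochondrial fusion gene Mfn2 at 0.944. Pfkm was followed by Suclg1 at 0.961, Cryba4 and, at 0.939, Calr, and Pfkl by Kdm4b at 0.958, Med16 at 0.928 and Spsb3 at 0.923. For Pfkfb2 they were Slc35e2 at 0.968, Cdk13 at 0.965 and Bach1 at 0.964, and for Pfkfb3, whose level is low, Mark1 at 0.883, Ep400 at 0.882 and Evc2 at 0.863. The points share the difference between groups, and each list holds the top 3 of 11358 genes.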

How the data were processed

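RNA of isolated cardiac myocytes was sequenced as stranded paired-end libraries, per the labels' protocols. Tools in the submitters' processing notes are Cufflinks 2.2.1, Cuffdiff, Bowtie2 and TopHat2 2.1.0, and the build is mm10. The strand setting of the counting is not given in the sources used here. The deposited files list, per annotated transcript, an FPKM made by the authors with Cufflinks, normalized for length and library size, with a coverage and 95% bounds. The score column as deposited was not used. No read counts are listed, so read depth per library is unknown. Median coverage per FPKM, which scales with depth, was 3.90 to 6.09.

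FPKM was summed by gene ID, and symbols were matched for 44952 of 45882. Of the 109869 transcripts, 107711 matched GENCODE M21 by ID, 92.5% of these with the same position. As in an earlier treatment of these files, 22 gene IDs listed at 0 in part of the libraries with a median of at least 100 FPKM in the rest, and 7781 under 300 nt, were left out. Rescaling took each library's median ratio to the geometric means (factors 0.912 to 1.10). Genes of mean FPKM of at least 1 (11358) were tested on log2(FPKM + 1) with limma 3.58.1 in R 4.3.3, all 10 libraries in one fit, with a trend and Benjamini-Hochberg adjustment over all genes tested; fold changes of low genes are understated on this scale. On simulated data the fit was checked for recovery of known changes. Rose and fell are used of adjusted p under 0.05. Isozyme shares used unrescaled FPKM and exact permutation tests. A start group joins transcripts that begin within 100 bases of each other.

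The members, the lists and the tests were chosen with earlier results of these data known. All 9 members were named whatever their values, other pathway genes where called or needed to describe a result (some are not reported here), and the 3 genes of highest r for each member. Replicate numbers of the titles were not used as pairs in the main fit, since each library has its own mouse. Deviations of same-numbered libraries correlated at -0.36 to 0.33 (9 pairs), against -0.35 to 0.46 for other pairs (24). With so few libraries per group, these correlations cannot show whether same-numbered libraries shared a batch. Alternatives were the pseudocount, filter, scaling, variance model, samples fitted, Xist as a covariate, replicate block, each library left out and protein-coding transcripts only.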

Additional observations from a re-analysis of the deposited data

Results flagged for a closer look

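Hk2 differed between the effects of the 2 conditions: the knockouts lay at 53.4 to 64.1 FPKM and TAC at 70.5 to 84.9 FPKM, a difference of -0.46 on the log2 scale (adjusted p = 0.0431, limma), which passed the test of the difference itself. That call was lost in 13 of 24 alternatives (adjusted p 0.0287 to 0.149), including fits that left out single libraries of each group. Relative to control the same gene lay at 81.2% in the knockouts and 112% after TAC, lower in 4 of 4 knockouts than in every control. No library stood apart from its group in the 13 sets of 4 knockout values that could be tested.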

How the results depend on the processing

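The calls of Hk1, Pfkp and Fbp2 against control held in all 24 alternatives. Those of Pfkfb1 held in the 23 in which it was tested, but it passed the filter through the controls alone, so this is a description. At a mean of at least 5 FPKM, Pfkfb1 and Pfkfb3 were not tested, and with protein-coding transcripts only Pfkfb3 was not. In the knockouts 4 to 5 members were called and after TAC 4 to 6. The replicate block gave 5, 6 and 0 members in knockout against control, TAC against control and knockout against TAC; beside the loss of Hk2 it added Pfkfb2 after TAC (adjusted p = 0.0352). Between knockout and TAC, 0 members were called by limma without a filter, without rescaling, with quantile normalization, with upper-quartile rescaling, with only the 2 groups and with the block (1 to 2 at an unadjusted p under 0.05), and 0 to 1 with each library left out. The difference of Pfkfb3 from control in the knockouts became -0.018 with quantile normalization, -0.060 with the block and -0.057 to 0.15 with a library left out. Between knockout and TAC, Pfkm became 0.053, 0.076 and 0.027 without rescaling, with quantile normalization and with upper-quartile rescaling, 0.027 with the block and -0.064 to 0.060 with a library left out; Pfkfb2 became 0.054, 0.063 and 0.029 under the same scalings and -0.095 to 0.052; Pfkfb3 -0.31 to 0.037; and Fbp2 0.019 with the block and -0.27 to 0.11. With only the most abundant transcript of each gene, the share of Hk1 differed by 8.97, 8.29 and 0.689 points in the 3 comparisons (adjusted p = 0.0643) and that of Pfkl by -0.792 points in knockout against control. With protein-coding transcripts the share of Pfkl differed by 1.52, 3.23 and -1.72 points (adjusted p = 0.0476), and with a library left out by 0.680 to 1.85, 2.31 to 3.41 and -2.32 to -1.12 points (adjusted p 0.0179 to 0.179, passing without knockout replicate 2). The cause was not tested. Over all genes, 2362, 1755 and 372 calls became 1487 and 1167 at a mean of at least 5, 1153 for TAC with only 2 groups, and 195 without a filter, 200 with the block and 133 to 443 with a library left out for knockout against TAC. Without rescaling, 73.5%, 66.4% and 63.9% of calls were higher, against 50.9%, 52.3% and 48.1%, and upper-quartile rescaling gave 60.8% for the last; members of low coverage, Pfkfb1 and Pfkfb3, are the least precise. One scaling, the median of ratios over all genes above 0, was added after seeing the data.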
